A study of Rattus norvegicus with 3 samples.

Results

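Vomeronasal type 2 receptor genes (Vom2r) were the nearest genes to 838 of the 32731 HILS1 peaks (2.56%, 95% Wilson interval 2.39 to 2.74) listed for rat elongating/condensing spermatids. The members are all peaks whose nearest transcription start site belongs to a gene with a name beginning with Vom2r, so the gene names the neighbourhood of a peak and not a measured effect on the receptor. HILS1 ChIP sequencing was done in 2 replicates and 1 input DNA library, all from testis nuclei of rats aged 50 to 60 days, for which no genetic change or treatment is labelled, and the antibody was raised against a peptide of the HILS1 C-terminal domain. The deposited list holds peaks found in both ChIP replicates against the input on the rn5 assembly, and gives 1 fold enrichment per called peak and no value per replicate. The depth of each library is unknown from the list, no expression was measured in these files, and the cell type label could not be checked against marker genes.

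HILS1 is a linker histone made only in spermatids, the haploid germ cells that condense their chromatin on the way to becoming sperm. Vomeronasal type 2 receptors are class C G-protein-coupled receptors of sensory neurons in the basal layer of the vomeronasal organ, where they detect peptide and protein pheromones. The genes stand in clusters with many pseudogenes, and LINE-1 (L1) elements are retrotransposons that copy themselves through RNA and are spread over the rat genome in many subclasses of different age.

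Within the family, a peak in an intron of Vom2r26 on chromosome 1 was among the regions the study chose for quantitative ChIP-PCR. The primers are shown because they were assigned to the peak that was taken for a second assay. That peak lies at chr1:69879466-69880705 on rn5, 10399 bp downstream of the Vom2r26 start site, and is annotated as L1_Rn. This peak was 1239 bp long and had a fold enrichment of 32.41 over the background of the peak caller at a false discovery rate of 7.03%. Both primers are 20 bases long, are written 5′ to 3′ and are the only chromosome 1 pair in the study's list of oligonucleotides, by which they were assigned to this peak. The label of the pair in that list differs from the study's name for the region. The primers were not matched to the rn5 sequence, so the assignment was not tested. The PCR values were not analysed here.
Vom2r26 forward primer: ccgtgggagtgagagctaaa
Vom2r26 reverse primer: tctttggctttttcctctgg

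The 838 Vom2r peaks came from 683 called peaks, since a called peak that was cut by the overlap of the replicates gave several listed peaks that carry the same fold. They were nearest to 54 receptors on 10 chromosomes and covered 821 kb. All 54 names were found among RefSeq genes of the GRCr8 assembly, where 78 protein-coding Vom2r genes are annotated. The other 24 of these named no peak, and whether they were annotated on rn5 was not tested. The peaks were unevenly spread among receptors. Vom2r57 alone had 411 peaks (49.0%), and with Vom2r9 (75) and Vom2r76 (50) it held 536 peaks (64%), while the other 51 receptors shared 302. The median receptor had 5 peaks, and 12 receptors had 1.

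Because so much of the family lay at Vom2r57, and because many peaks lay in crowded stretches of the genome, the main properties are given for the whole family, without Vom2r57, and outside dense windows. A dense window is a 1 Mb stretch with 50 or more peaks of any gene, and 67 such windows held 6328 peaks (19.3%) of the list. Of the Vom2r peaks 580 (69.2%) lay in dense windows, in 9 of the 41 windows with a Vom2r peak, and without Vom2r57 the number was 178 of 427 (41.7%). Peaks are regions of 1 pooled list and not replicates, so no test was run over them, and the intervals given cover counting error only.

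L1 elements held 386 of the 838 Vom2r peaks (46.1%, interval 42.7 to 49.4), against 77.6% of all peaks in the list. A further 257 (30.7%, interval 27.6 to 33.9) lay in no annotated repeat, against 11.3% of all peaks. LTR elements held 81 peaks, satellites 71, SINEs 13 and other repeats 30. The L1 share was 63.5% (58.8 to 67.9) without Vom2r57 and 82.9% (77.9 to 87.0) outside dense windows, where all peaks of the list gave 89.1%. The repeat-free share was 23.2% and 10.1% (6.97 to 14.4) in the same sets, against 4.70% for all peaks outside dense windows. Inside dense windows 29.7% of Vom2r peaks and 29.5% of all peaks were in L1, and 39.8% and 39.0% in no repeat. Most of these Vom2r peaks, 402 of 580, were those of Vom2r57. Without them, the other 178 were in L1 for 37.1% (30.3 to 44.4) and in no repeat for 41.0% (34.0 to 48.4).

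**Figure D1:**
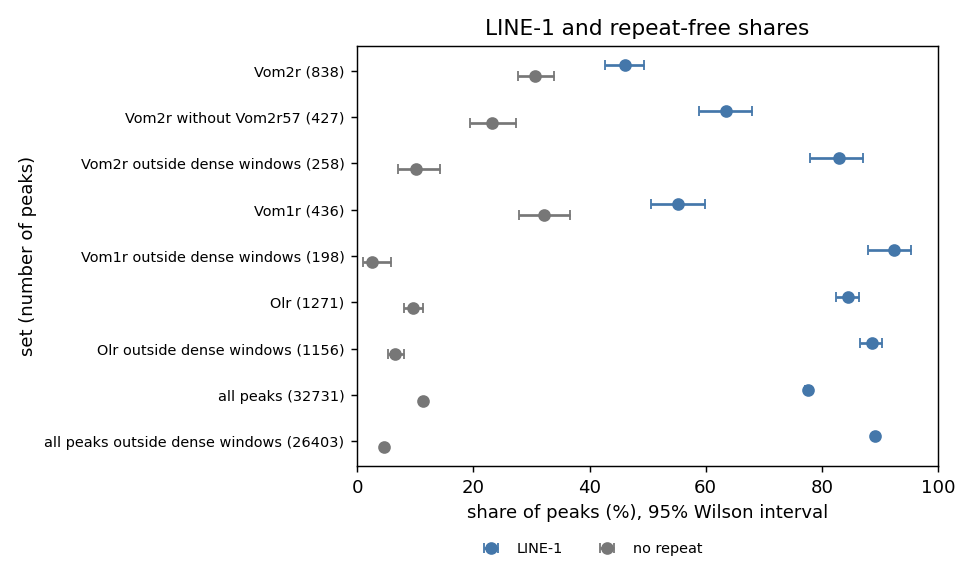
Shares of HILS1 peaks in LINE-1 (blue) and in no repeat (grey), in percent of peaks with 95% Wilson intervals, for Vom2r, the similar families Vom1r (vomeronasal type 1 receptors) and Olr (olfactory receptors), and all peaks, with the number of peaks in brackets. The Vom2r LINE-1 share moved from 46.1% to 82.9% outside dense windows, and that of Vom1r from 55.3% to 92.4%.

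Fold enrichment followed the same division. The median over the 838 Vom2r peaks was 19.44 (quartiles 13.89 and 27.78, range 7.41 to 176.84), which is 4.28 on the log2 scale (interval 4.21 to 4.35), against 25 (4.64 on the log2 scale) for the whole list. It was 23.15 without Vom2r57 and 25.46 outside dense windows, where the list had 26.85. The false discovery rate, an estimate from the peak caller, was at most 10% for 619 Vom2r peaks (73.9%, interval 70.8 to 76.7), against 84.7% of all peaks. Without Vom2r57 it was so for 332 of 427 (77.8%), and outside dense windows for 206 of 258 (79.8%), against 87.7% of all peaks there. Peaks in L1 had a median fold of 25 near Vom2r genes and 26.85 in the list. Repeat-free peaks had 15.74 and 16.67, LTR peaks 15.74 in both, and satellite peaks 15.74 near Vom2r genes against 21.29 in the list. By locus, the repeat-free median was 13.89 for the 158 peaks of Vom2r57 and 18.52 for the 99 of other receptors. It was 12.04 for the 26 repeat-free peaks outside dense windows. Of the 71 satellite peaks 65 were at Vom2r57. Of these, 44 were in the satellite RatSatRep1, with a median of 14.81, against 15.74 for RatSatRep1 in the list.

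**Figure D2:**
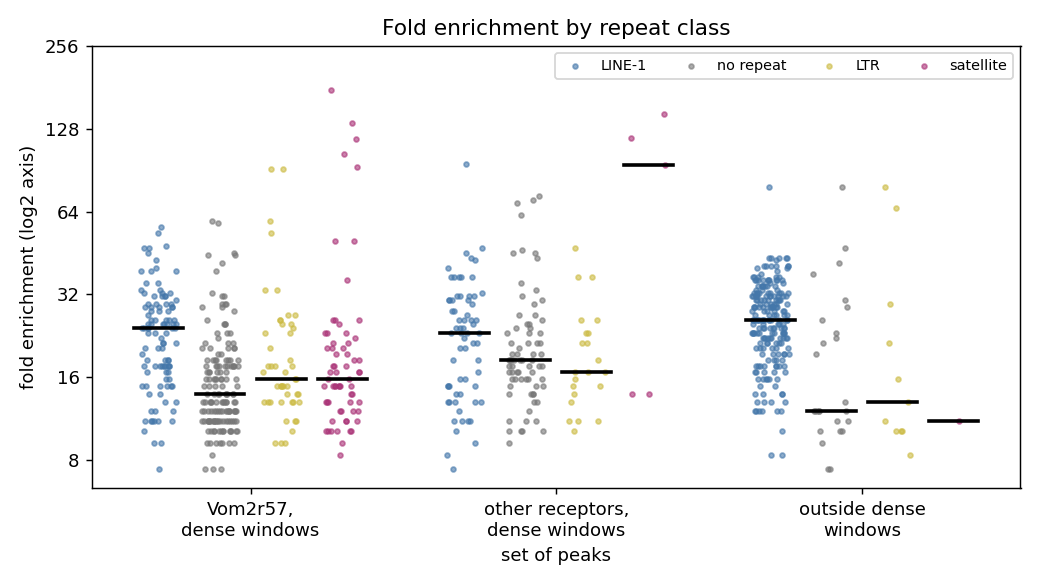
Fold enrichment over the background of the peak caller (log2 axis) of each Vom2r peak in LINE-1, no repeat, LTR or satellite for Vom2r57 in dense windows, other receptors in dense windows, and all receptors outside them, by repeat class, with black bars at the medians. LINE-1 peaks outside dense windows have a median of 25.92, repeat-free peaks there 12.04, and the points above 90 in the first set are mostly satellite peaks.

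The Vom2r peaks were mostly far from start sites. Their median distance to the nearest start site was 431.9 kb, against 198.77 kb for all peaks, and 268 peaks lay beyond 1 Mb, 267 of them at Vom2r57. Without Vom2r57 the median was 116.8 kb, and outside dense windows it was 82.7 kb, against 166.49 kb for all peaks outside dense windows. Within 100 kb lay 23.5% of the Vom2r peaks, 46.1% without Vom2r57 and 57.4% outside dense windows, against 32.6% of the whole list and 36.8% of its peaks outside dense windows. No Vom2r peak overlapped a start site. The 24 peaks within 10 kb (2.86% of the family, and 3.85% for the list) belonged to 14 receptors and 21 of them were in L1.

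The closest peaks were all in L1_Rn elements. The nearest of all lay 1234 bp upstream of Vom2r55 at chr7:17217722-17219193 with a fold of 34.26. Next came a peak 1737 bp upstream of Vom2r48 on chromosome 4 with a fold of 20.37, and one 1956 bp downstream of the start of Vom2r61 on chromosome 12 with 28.7. Vom2r54 had a peak at 2166 bp upstream with a fold of 34.26. A second listed peak of Vom2r48, farther upstream, came from the same called peak as the first and so had the same fold of 20.37.

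**Figure D3:**
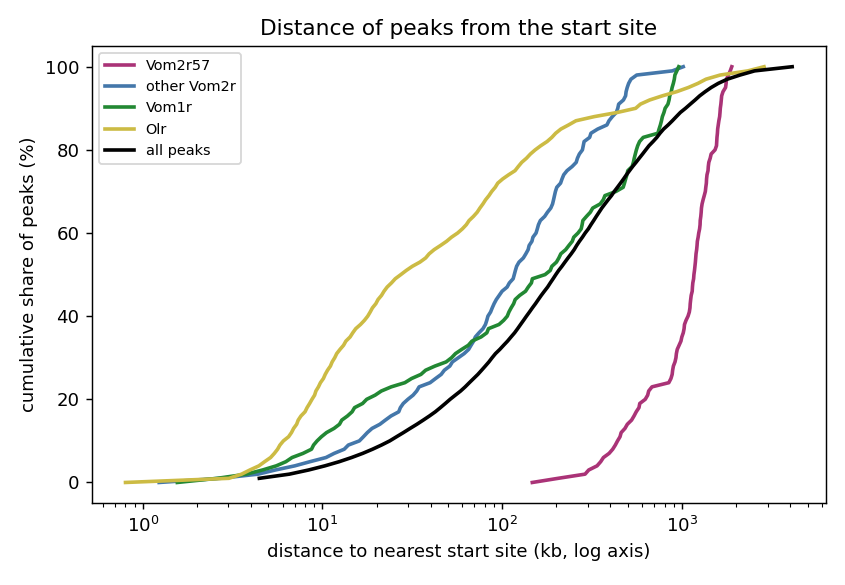
Cumulative share of peaks (percent) against the distance to the nearest start site (kb, log axis; distances under 0.5 kb are not drawn) for Vom2r57, the other Vom2r, Vom1r, Olr and all peaks. The Vom2r57 line starts at 147 kb and has its median at 1166 kb, while the other Vom2r peaks reach their median at 116.8 kb and Olr at 27.3 kb.

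Most of the family's peaks were intergenic, 733 of 838 (87.5%), against 85.9% of the list, and 101 (12.1%) were intronic, against 13.9%. All 101 intronic peaks belonged to other receptors than Vom2r57, so they were 23.7% (interval 19.9 to 27.9) of the rest, and outside dense windows they were 90 of 258 (34.9%, interval 29.3 to 40.9), against 16.3% of all peaks there. L1 elements held 91 of the 101 (90.1%, interval 82.7 to 94.5), against 88.1% of all intronic peaks. The median fold of the intronic peaks was 27.78, against 26.85 in the introns of the list, and the median distance from the start site was 47.7 kb, against 79.7 kb. Outside dense windows, which leaves out the 11 intronic peaks of Vom2r26, L1 held 80 of 90 (88.9%), against 90.6% of all intronic peaks there. The distances there were 74.3 kb and 83.3 kb. Intergenic Vom2r peaks were in L1 for 40.2%, for 55.9% without Vom2r57 and for 81.7% outside dense windows, against 76.1% of all intergenic peaks and 89.0% of those outside dense windows.

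The intronic peaks lay in transcripts of the receptor that names them in 71 cases and of a neighbouring Vom2r gene in 30. Counting by the transcript that holds them, Vom2r30 had 13 peaks, all in L1, of which 7 were named for Vom2r29 and 6 for Vom2r31. The start site implied for Vom2r29 is also that implied for Vom2r30, so those 7 are as near to the start of the gene that holds them. Vom2r26 had 11, all in L1 with a median fold of 30.55, and Vom2r72 had 11, of which 7 were in L1. Vom2r37 had 10, of which 6 were in L1. Vom2r60 also held 11, all in L1, but 8 of these were nearest to Cers4, which makes ceramides, and so are outside the family as counted here. In all, 12 peaks inside Vom2r transcripts were nearest to a gene with another name.

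The Vom2r26 peaks stood close together and in 1 repeat class. All 25 lay at chr1:69798207-69914663, all in L1, and their folds ran from 13.89 to 37.03 with a median of 30.55. The 11 intronic peaks were all in L1_Rn, and the intergenic peaks on either side were in L1_Rat1, RNHAL1 and L1_Rn. The highest fold, 37.03, was that of a single called peak, which gave 4 listed intronic peaks. These peaks lay in the dense window at 69 to 70 Mb, the 1 dense window with Vom2r peaks where L1 held 100% of the 52 peaks of all genes.

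The 14 Vom2r37 peaks were all intronic and had the highest median fold, 31.015 (range 16.67 to 47.22), among the 14 receptors with 10 or more peaks. The 4 that lay in the transcript of Vom2r38 were in L1_Rat1 and had folds of 30.55, 31.48, 20.37 and 16.67. Of the 10 in the Vom2r37 transcript, 4 were in no repeat, and these included the highest peak, at chr1:100127300-100130971 with a fold of 47.22, and one with 41.66. The lowest median, 12.04 (range 7.41 to 23.15), belonged to the 13 peaks of Vom2r1 on chromosome 10. Its peaks ran from an intron of Vom2r1 through introns of Vom2r4 to intergenic sequence up to 1017.19 kb away, with 8 in L1 and 4 in no repeat.

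In Vom2r72 the 11 intronic peaks on chromosome 14 had folds between 8.33 and 29.63. The repeat-free peak had 12.04, 3 peaks in RMER elements, which are LTR sequences, had 29.63, 11.11 and 10.18, and the 7 in L1 had between 8.33 and 29.63. The ranges of the classes overlapped within this gene. Its 11 listed peaks came from 9 called peaks, so some of them share a fold.

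Exons held 4 Vom2r peaks of the 17 in the list. All had a fold of 12.04 and no annotated repeat. One lay in an exon of Vom2r3 at chr1:400277-400823 and was nearest to the start of Vom2r2, with a false discovery rate of 21.76%. A second called peak gave 2 listed peaks in an exon of Vom2r64 at chr12:23003506-23004067 and chr12:23004278-23004726, at 11.86%. The fourth lay in an exon of Vom2r67 at chr14:1319868-1320517, at 21.04%. None of these 4 reached a false discovery rate of 10%.

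**Figure D4:**
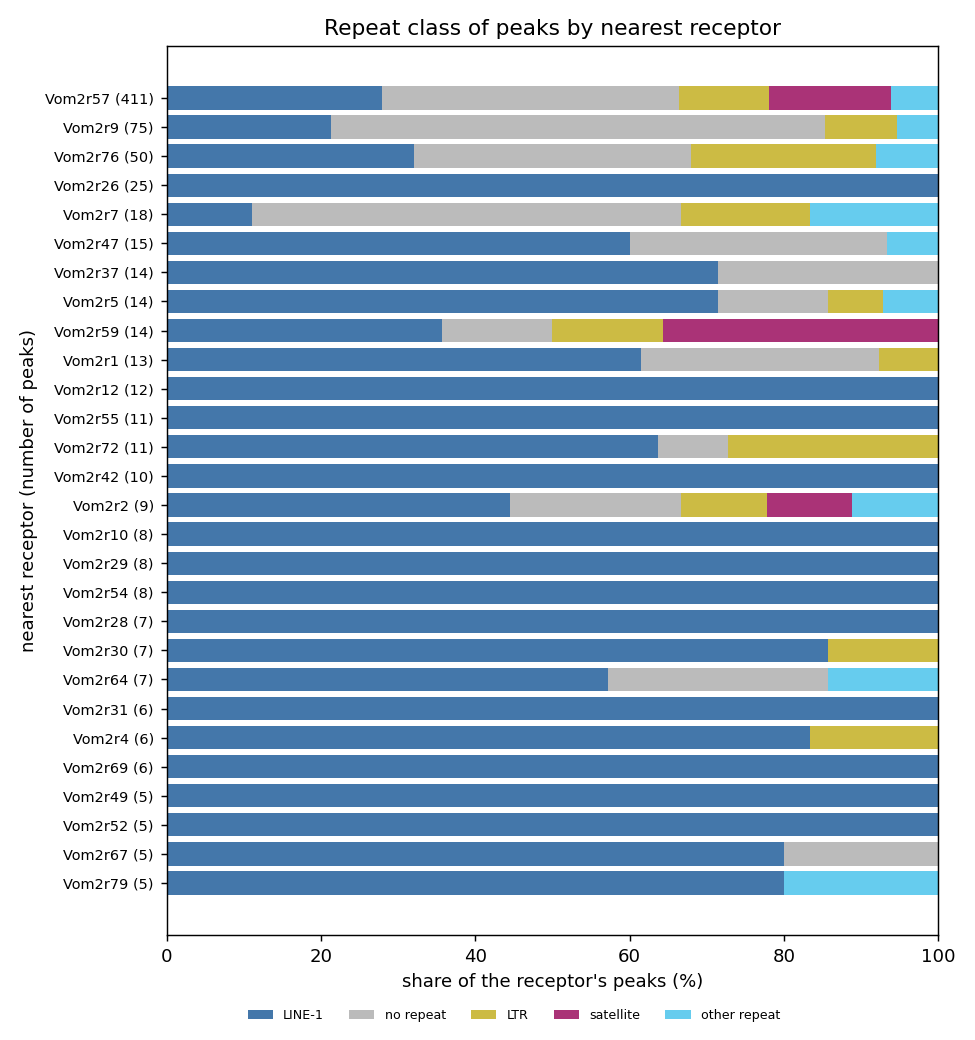
Repeat class of the peaks as a share (percent) of the peaks of each receptor, for the 28 receptors with 5 or more peaks (number of peaks in brackets). In 6 of them (Vom2r57, Vom2r9, Vom2r76, Vom2r7, Vom2r59 and Vom2r2) LINE-1 held less than 50% of the peaks.

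Seen by receptor, L1 was the common class outside a few loci. All peaks were in L1 at 36 of the 54 receptors (158 peaks), 24 of which had 2 or more peaks, and every receptor had at least 1 peak in L1. In the whole list 4520 of 4777 gene names had a peak in a LINE element, so nothing particular to the receptors is read from these counts. The share of genes with all peaks in L1 was not computed for the list. Vom2r12 (12 peaks), Vom2r55 (11) and Vom2r42 (10) were entirely in L1. Repeat-free peaks were found at 13 receptors and satellites at 3, with 65 satellite peaks at Vom2r57, 5 at Vom2r59 and 1 at Vom2r2. Of the 26 repeat-free peaks outside dense windows, Vom2r47 and Vom2r9 had 5 each, Vom2r1 and Vom2r37 had 4 each, and 5 other receptors had 1 or 2. Their folds differed by locus, with medians of 39.81 at Vom2r37, 28.7 at Vom2r9, and 10.18 at both Vom2r47 and Vom2r1.

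At Vom2r9 the 75 peaks spread over chr1:56582963-57217215, and 65 lay in the dense window at 56 to 57 Mb, where the other 73 peaks were nearest to Smok2a, a sperm motility kinase gene. No repeat was annotated for 48 and 16 were in L1. The median fold was 18.98 for repeat-free peaks (9.26 to 78.7) and 19.445 for L1 peaks (8.33 to 95.36). The ranges overlapped, but several called peaks were cut into listed peaks of both classes, which then share a fold. The peak at chr1:56937606-56938207, with 95.36, had the highest fold of any L1_Rn peak in the whole list. A single called peak at 57185762 to 57192908 with a fold of 78.7 gave 3 listed peaks, in an L1MD element, no repeat and an ORR1D2 element in turn.

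Vom2r7, in the neighbouring window at 55 to 56 Mb, had 18 peaks, of which 10 were in no repeat and 2 in L1, with a median fold of 20.365. That window also held 65 peaks nearest to Smok2a. Vom2r76 on chromosome 9 had 50 peaks at chr9:6419717-6627722, all upstream of its start site. Its 18 repeat-free peaks had a median fold of 18.98, the 12 LTR peaks 17.595, and the 16 L1 peaks 14.81, and the highest fold, 70.37, belonged to a repeat-free peak. Peaks in repeats of the small and of the large ribosomal RNA, 1 of each, had a fold of 25.

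Vom2r59 on chromosome 12 combined low and very high folds. Its 14 peaks had a median of 21.295, but 3 of its 5 satellite peaks reached 94.44, 118.51 and 144.44, the last in an ISAT_RN satellite at chr12:5791787-5792673, while the other 2 satellite peaks had 13.89 each. The 5 L1 peaks had folds between 11.11 and 25.92. The dense window at 5 to 6 Mb, which held 13 of the 14, also held 44 peaks nearest to Clec4m, a C-type lectin gene.

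The Vom2r57 peaks on chromosome 7 filled most of a long interval between start sites of that name. The recorded distances of its 411 peaks imply 2 start sites, both on the minus strand, at 19268428 and 23099638 on rn5, with 95 peaks nearest to the lower and 316 to the upper. The 3.83 Mb between the sites held 411 peaks of any gene, which is 107 peaks per Mb, and the peaks covered 10.3% of the interval. All were named for Vom2r57, which follows from naming each peak for its nearest start site and is no separate result. The peaks began 351.298 kb from the lower site and ended 146.801 kb short of the upper one. All 411 were intergenic, and they made up 20.5% of the peaks on chromosome 7. L1 held 115 (28.0%, interval 23.9 to 32.5), no repeat 158 (38.4%), satellites 65 and LTR elements 48.

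**Figure D5:**
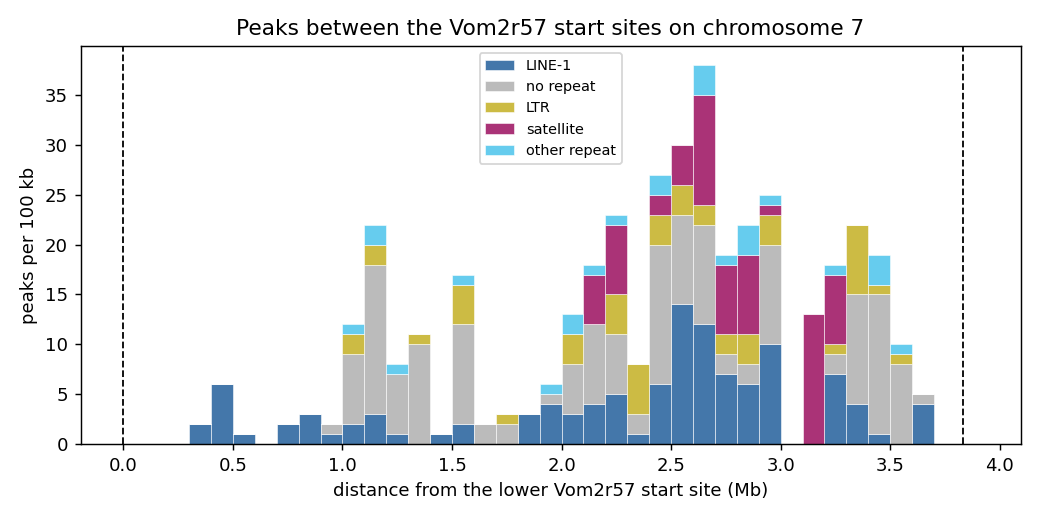
Number of peaks per 100 kb (bars, coloured by repeat class) against the distance in Mb from the lower of the Vom2r57 start sites, with dashed lines at both sites. The highest bar, 38 peaks, starts at 2.6 Mb, the satellite peaks lie in the upper part of the interval, and the first peaks above the lower site are all in LINE-1.

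The repeat classes were not mixed evenly along the interval. The 9 peaks between 19 and 20 Mb were all in L1 and had a median fold of 24.07. Between 20 and 21 Mb there were 81 peaks, of which 51 were in no repeat, 15 in L1 and 0 in satellites, with a median fold of 12.04, and 46.9% of them had a false discovery rate of at most 10%. Between 21 and 22 Mb there were 180 peaks with a median of 17.13, of which 56 were in L1, 58 in no repeat and 35 in satellites. Between 22 and 23 Mb there were 141 peaks with a median of 18.52, of which 35, 49 and 30 were in these classes. Within Vom2r57 the median fold was 24.07 for L1, 13.89 for no repeat and 15.74 for both LTR elements and satellites.

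The 2 main satellites lay in separate stretches. RatSatRep1 held 44 peaks within chr7:21424024-22130115, which is 12% of all RatSatRep1 peaks of the list. They were scattered among peaks of other classes, in runs of at most 5. Their folds went from 8.33 to 25.92 with a median of 14.81. SATI_RN then held a run of 21 consecutive peaks at chr7:22257484-22519871, over 262.387 kb. The first of these stood apart, since the 100 kb that begin 3000 kb above the lower start site held 0 peaks. Folds in that run went from 10.18 to 176.84 with a median of 20.37, with 5 peaks at 90 or more and 13 below 26, so neighbouring peaks of 1 repeat differed widely. The highest, at chr7:22488313-22489115, was the highest of all Vom2r peaks, and 12 peaks of other genes in the list were higher. A fold of 90 or more was reached by 11 of the 838 Vom2r peaks and by 180 of the 32731 peaks of the list. Of the 11, 8 were in satellites, and the number in satellites among the 180 was not computed.

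By chromosome, chromosome 7 had 431 Vom2r peaks at 4 receptors (135 in L1, median fold 17.59) and chromosome 1 had 233 at 25 receptors (142 in L1, 24.07). Chromosome 9 had 57 (22 in L1, 18.52), chromosome 12 had 32 (20 in L1, 24.535) and chromosome 14 had 26 (20 in L1, 24.535). Chromosome 2 had 23 (17 in L1, 24.07) and chromosome 10 had 19 (13 in L1, 12.96). On chromosomes 4, 6 and 8 all peaks, 9, 5 and 3, were in L1, with median folds of 21.29, 31.48 and 21.29. The lower medians were thus those of chromosomes 7, 9 and 10. Vom2r peaks made up 21.5% of the peaks of chromosome 7, 9.20% of those of chromosome 12 and 5.70% of those of chromosome 1.

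Among L1 subclasses, L1_Rn held 141 Vom2r peaks (36.5% of those in L1), L1_Rat1 75 (19.4%) and RNHAL1 36 (9.33%), against 48.0%, 30.3% and 10.2% of the L1 peaks of the list. Without Vom2r57 the shares were 44.3%, 22.9% and 11.4%. The median folds of the family's peaks in these subclasses were 28.7, 24.07 and 28.24, against 30.55, 24.07 and 26.85 in the list. L1_Rat3 held 23 peaks, 20 of them in dense windows, and L1_Rat2 held 20, of which 5 were. Outside dense windows L1_Rn held 99 (46.3%), L1_Rat1 54 (25.2%) and RNHAL1 30 (14.0%), against 50.1%, 31.7% and 10.6%, and L1_Rat2 15 (7.01%), against 3.35%. At Vom2r57 the counts were 21 for L1_Rn, 17 for L1_Rat3, 13 for L1_Rat1 and 12 for Lx4B.

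Families of other chemosensory receptors are set beside these values with no test. Vom2r genes have several coding exons, whereas the coding region of Vom1r and Olr genes is usually not split by introns. Vom1r genes, the type 1 vomeronasal receptors of apical sensory neurons, had 436 peaks at 61 genes, of which 55.3% were in L1, and 92.4% of 198 outside dense windows. Olr genes, the olfactory receptors of the main olfactory epithelium, had 1271 peaks at 386 genes, of which 84.5% were in L1, and 88.6% of 1156 outside dense windows. Repeat-free peaks were 32.1% of the Vom1r peaks and 9.60% of the Olr peaks, and 30.7% of the Vom2r peaks. Outside dense windows these shares were 2.53%, 6.57% and 10.1%. Intronic peaks were 0.459% of the Vom1r peaks and 3.78% of the Olr peaks, and 12.1% of the Vom2r peaks. The median distance to a start site was 173.2 kb for Vom1r and 27.3 kb for Olr, and outside dense windows it was 36.5 kb and 22.9 kb, against 82.7 kb for Vom2r. The median fold was 23.15 for Vom1r and 25.92 for Olr.

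Of 14 genes that signal in vomeronasal neurons or are related to the receptors, 1 was named by a peak. For comparison, 16.7% of the 23148 protein-coding RefSeq symbols of GRCr8 were named by a peak, so nothing is read from this count. The list held 9 genes of signalling or of sensory neurons, the channels Trpc2, Ano1, Ano2, Itpr3 and Kcnn3, the G-protein subunits Gnao1 and Gnai2, the phospholipase Plcb2, and the olfactory marker Omp, and 5 class C relatives of the type 2 receptors, the calcium-sensing receptor Casr, the amino acid receptor Gprc6a and the taste receptors Tas1r1, Tas1r2 and Tas1r3. The named gene was Gnao1, which encodes the G-protein subunit that couples to type 2 receptors. It had 2 peaks on chromosome 19, an intronic one in no repeat with a fold of 12.04 and an intergenic one in L1_Rn with 23.15. Fpr1, a formyl peptide receptor gene, had 3 peaks, all in L1_Rn, with folds of 34.26, 17.59 and 17.59.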

How the data were processed

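HILS1 ChIP-seq of elongating/condensing spermatids comprised 2 ChIP replicates and 1 input. According to the methods and the submitters' processing notes, the authors trimmed paired reads (FastQC, Trim Galore), aligned them uniquely to rn5 (Bowtie2), removed PCR duplicates (SAMtools), called peaks per replicate against input (MACS), kept the overlap (bedtools) and annotated it (HOMER). Unique alignment drops reads that fit several copies of a repeat, and how this altered the peaks in L1 or satellites was not tested.

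The deposited list gives a fold enrichment (peak height over the background of the peak caller), a score and a false discovery rate in percent for each called peak. It gives the length and distance to the start site for each listed peak. Its listed lengths run from 100 to 4000 bp. The score, on which no result rests, and the fold come from the authors and were not recomputed. No per-sample column was left unused (0), and library depth is unknown.

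Peaks were selected by nearest gene name in Python 3.11.15 with pandas 2.3.3, numpy 2.4.6 and scipy 1.17.1, and drawn with matplotlib 3.10.9. Shares have 95% Wilson intervals, and medians of log2 fold have order-statistic intervals. Both were tested on simulated independent values only, so that test does not cover peaks that share a fold or stand in clusters. Start sites were derived from each peak's middle and its distance. Named were receptors with 20 or more peaks, with an exonic peak, with the most intronic peaks, and with the highest or lowest median fold among those with 10 or more, and the 5 highest and 5 closest peaks. Others were named to describe counts after their values were seen. The members and lists were chosen with earlier results of these data known. RefSeq names come from GRCr8, whose coordinates were not used. The 8 alternatives tried were leaving out Vom2r57, leaving out dense windows, the longest segment per called peak, a fold of 16 or more, a false discovery rate of at most 10%, merging peaks under 6000 bp apart, peaks inside a Vom2r transcript, and peaks within 100 kb of a start site.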

Additional observations from a re-analysis of the deposited data

How the results depend on the processing

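Of 32 values, 4 results under 8 alternatives, 28 moved by more than their interval and 4, those with the longest segment of each called peak, did not. In each group below the values are the L1 share, the repeat-free share, the median log2 fold and the median distance, which were 46.1%, 30.7%, 4.28 and 431.9 kb for all 838 Vom2r peaks. They were 63.5%, 23.2%, 4.53 and 116.8 kb without Vom2r57, and 82.9%, 10.1%, 4.67 and 82.7 kb outside dense windows. With a fold of at least 16 they were 58.7%, 22.2%, 4.70 and 250.1 kb, and at 10% false discovery or less they were 53.3%, 25.2%, 4.59 and 352 kb. Counting peaks under 6000 bp apart once gave 58.5%, 25.2%, 4.59 and 209 kb. Peaks inside a Vom2r transcript gave 86.7%, 8.57%, 4.80 and 36.1 kb, and peaks within 100 kb of a start site gave 85.8%, 8.63%, 4.70 and 34.5 kb. The fold chose the peaks with a fold of at least 16, and the distance those within 100 kb, so these 2 values moved by construction.

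No paired analysis was possible because the list has no value per sample. Values without 1 of the replicates, and replicate error, were not obtained for the same reason. Listed peaks from 1 called peak share its fold, so intervals over peaks are too narrow.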

Other observations

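The peaks nearest to Vom2r29 (8) and to Vom2r30 (7) imply the same start site, at 74306093 on chromosome 1, the first set downstream of it and the second upstream. Vom2r2 had 5 peaks on chromosome 1 and 4 on chromosome 2, from 2 implied start sites. The 5 had folds of 8.33 to 12.04 with none in L1, and the 4 had 28.7 to 43.52 and were all in L1. For 6 receptors (Vom2r1, Vom2r4, Vom2r18, Vom2r25, Vom2r49 and Vom2r65) the chromosome in the list differed from that of the RefSeq gene of the same name on GRCr8.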
